A study of Mus musculus with 4 samples.

Results

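The Sall and Tfap2 transcription factors were examined in otocysts, the epithelial vesicles that form the inner ear, of mouse embryos with a conditional deletion of Tbx2 and Tbx3. All array probes for Sall1, Sall2, Sall3, Sall4, Tfap2a, Tfap2b and Tfap2c were taken, 10 probes of the 39429 on the array, covering 7 of 31693 distinct gene symbols or unnamed targets. Each probe was read separately. The files name the Tfap2 genes by their older symbols, Tcfap2a, Tcfap2b and Tcfap2c, and these were matched through RefSeq accessions.

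The mutants, labelled Tbx2/3cDKO, carried Pax2-cre with Tbx2(fl/fl) and Tbx3(fl/fl), so recombination was driven in cells with a history of Pax2-cre activity. The controls were labelled Tbx2(fl/?) and Tbx3(fl/?) without Pax2-cre, and their other allele is not given. Both groups were of the NMRI strain at E10.5. On each of 4 two-colour arrays 1 mutant and 1 control otocyst RNA were hybridised together, with the dyes exchanged on replicates 2 and 4; the labels give replicates 1 and 2 as female and replicates 3 and 4 as male. Whether a sample was 1 embryo or a pool is not stated, so p-values refer to these 4 arrays. The spread of each probe was moderated toward a value common to all kept probes (prior degrees of freedom 4.84, residual 2). All arrays lay on 1 slide.

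Sall proteins are spalt-like zinc finger transcription factors that bind DNA through pairs of C2H2 fingers and recruit the NuRD corepressor, a nucleosome remodelling and deacetylase complex. SALL1 mutations cause Townes-Brocks syndrome in humans, in which hearing loss is common, and the chick orthologue of Sall4 acts in otic placode invagination. The Tfap2 genes encode AP-2 proteins, which bind GC-rich DNA as dimers and are known for roles in surface ectoderm, placodes and neural crest. Tbx2 and Tbx3 are T-box proteins that act mainly as repressors.

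Sall4 and Tfap2a each have probes that differ in the transcripts they report, and 3 probe sequences are shown because the results for these genes are read probe by probe. Probes are named by the transcript base at which they start, and coordinates are of the mouse build mm9. The Sall4 probe at base 2094, at chr2:168580437-168580496 on the minus strand, is annotated to 1 RefSeq transcript, whereas the probe at base 2666, at chr2:168578172-168578231, and the probe at base 4512, at chr2:168574333-168574392, are annotated to 3. In the probe at base 2094 capitals mark a histidine codon, 3 codons and a second histidine codon, the spacing found in C2H2 zinc fingers. The Tfap2a probe at base 93, at chr13:40829040-40829099 on the minus strand, is annotated to 1 RefSeq transcript, and the probe at base 3054, at chr13:40811044-40811103, to 2. Capitals in the probe at base 93 mark ATG triplets in its open reading frame.
Sall4 probe at base 2094: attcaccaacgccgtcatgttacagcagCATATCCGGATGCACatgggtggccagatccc
Sall4 probe at base 2666: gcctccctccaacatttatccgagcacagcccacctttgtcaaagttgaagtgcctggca
Tfap2a probe at base 93: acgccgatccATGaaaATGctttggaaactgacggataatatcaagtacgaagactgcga

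Across the arrays 57.8 to 60.8% of probe channels were well above background, and log2 ratios correlated pairwise at r = 0.643 to 0.849 across probes. No spot was saturated. Tbx3 was lower in the mutants by a log2 ratio of -3.43 ± 0.16 (SD, n = 4; limma adjusted p = 3.26e-06), and ranged over the arrays between -3.61 and -3.25. The Tbx2 probe had a log2 ratio of 0.06 ± 0.23 (SD, n = 4; adjusted p = 0.656); whether it lies in the deleted part is not stated. The only Pax2 probe bright enough to be tested had a log2 ratio of -0.09 (adjusted p = 0.436). Signal for this Pax2 probe was close to the detection limit, well above background on 3 mutant and 4 control channels. Its levels averaged 7.07 across mutant channels and 7.17 across control channels, so an unchanged Pax2 level cannot be read from it. All 25 otic epithelium markers were measured above background.

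Of the 10 probes, 7 passed the filter on dim spots, which asked for a signal well above background on at least 3 arrays in 1 genotype, and were tested, covering 5 genes. Sall1, Tfap2a and Tfap2c were higher in the mutants, with 3 probes called at an adjusted p under 0.05, and all 3 Sall4 probes were lower. The Sall2 probe was not called. Apart from Sall2, each tested probe had 1 sign on all 4 arrays, 3 above 0 and 3 below. Among the 23177 probes that passed the filter with a value on every array, the shares were 20.6% and 20.1%. Of all 23196 probes tested, 12.4% were called higher, 9.7% lower and 22.1% in either direction. The probes for Sall3, Tfap2b and Tfap2a at base 93 did not pass the filter and were not tested. The median log2 ratio of the 7 tested probes was -0.10, the Sall2 value, beside 0.00 over all tested probes. It counts Sall4 with 3 probes and the other genes with 1 each.

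**Figure D1:**
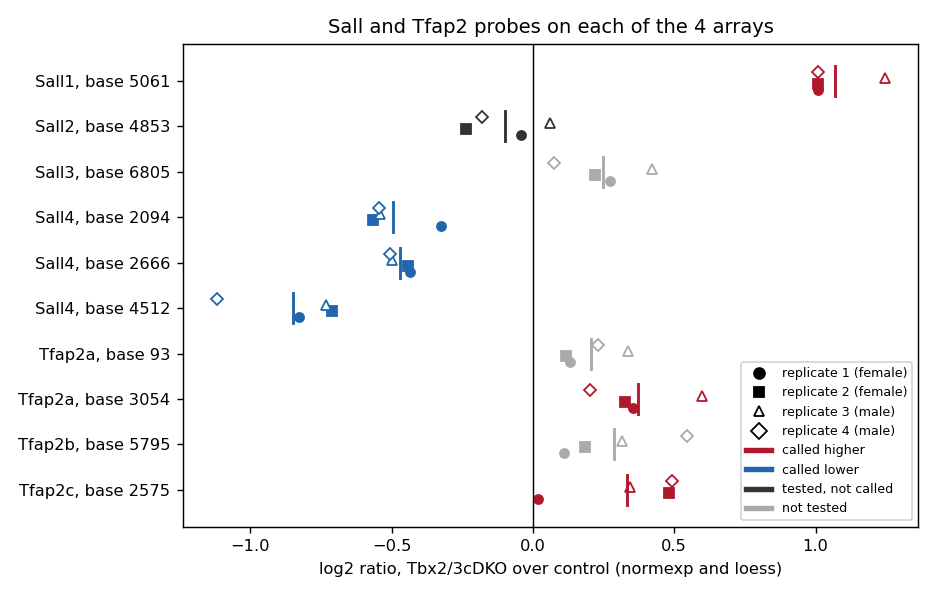
Log2 ratios of mutant over control (x axis) for the 10 probes (rows) on each of the 4 arrays, with symbols for replicates, filled for female and open for male, and a vertical bar for the mean. Sall1 lay between 1.01 and 1.25 on the 4 arrays and the 3 Sall4 probes between -1.12 and -0.32, while the Sall2 ratios fell on both sides of 0.

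Sall1, a repressor needed for kidney development and mutated in Townes-Brocks syndrome, had the highest ratio of the tested probes. Its log2 channel levels were 11.52, 11.33, 11.54 and 11.52 in the mutant channels, against 10.51, 10.32, 10.30 and 10.51 in the control channels of replicates 1 to 4. The groups did not overlap, and the mutant level was above the control level on every array. Of the 23177 probes that passed the filter with a value on every array, 12.4% had all mutant levels above all control levels. The log2 ratios were 1.01, 1.01, 1.25 and 1.01, a mean of 1.07 ± 0.12 (SD, n = 4). The fitted log2 ratio was 1.07 ± 0.06 (SE), or 2.10-fold higher in the mutants, with a 95% interval from 0.93 to 1.21 and an adjusted p of 5.47e-05 (limma). By absolute log2 ratio the probe ranked 280 of all tested probes. It lies at chr8:91551278-91551337 on the minus strand and shares a run of 16 bases with 1 probe of another gene, Ankrd34b.

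Sall4, a spalt-like factor of pluripotent and early embryonic cells, was lower in the mutants at each of its 3 probes. At base 4512 the mutant levels were 11.64, 11.42, 11.31 and 11.20, against control levels of 12.47, 12.14, 12.05 and 12.32. The lowest control level was above the highest mutant level. All mutant levels lay below all control levels in 10.1% of the 23177 probes that passed the filter with a value on every array. The log2 ratios were -0.83, -0.71, -0.73 and -1.12, and the fitted log2 ratio was -0.85 ± 0.08 (SE), 1.80-fold lower in the mutants (adjusted p = 0.000370).

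At base 2666 the mutant levels of Sall4 were 8.86, 8.71, 8.61 and 8.53, against control levels of 9.30, 9.15, 9.11 and 9.03. The groups did not overlap. Its log2 ratios, -0.43, -0.44, -0.50 and -0.51, had the smallest spread of the tested probes, an SD of 0.04 on 4 arrays, and the fitted log2 ratio was -0.47 ± 0.05 (SE), 1.38-fold lower (adjusted p = 0.000880). This probe shares 16 bases with 1 probe of another gene, Olfr571.

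The probe at base 2094, annotated to 1 transcript, read mutant levels of 7.18, 7.10, 6.92 and 6.95, against control levels of 7.50, 7.67, 7.46 and 7.50. Again no mutant level reached a control level. It was well above background on 3 of 4 mutant channels and on all 4 control channels, so it was close to the detection limit in the mutants. Its log2 ratios were -0.32, -0.57, -0.54 and -0.54, with a fitted log2 ratio of -0.49 ± 0.06 (SE), 1.41-fold lower (adjusted p = 0.00120). The scanner software's own ratios gave -1.18, -1.07, -1.44 and -1.36, a log2 ratio of -1.26 (adjusted p = 0.000986), over 1.5 times the value above. The direction was the same at all 3 probes under either processing, and without background subtraction, with loess kept, the probe at base 2094 gave -0.59. With median centring in place of loess the probe at base 2094 gave -0.48. The scanner ratios differ from the main fit in background subtraction, in the offset of 50 and in dye normalization. Which of these moved the value was not tested. No test was made of a difference between the transcripts.

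**Figure D2:**
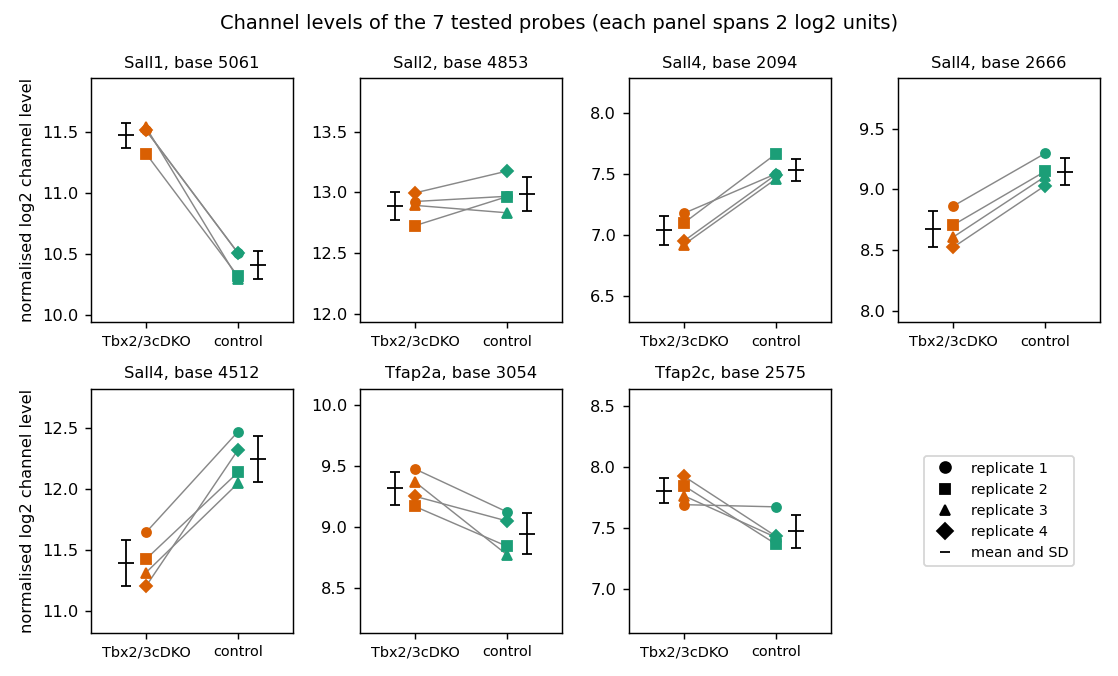
Normalised log2 channel levels (y axis, a separate scale in each panel) of the 7 tested probes in Tbx2/3cDKO (left) and control (right), with lines joining the 2 channels of an array and bars for mean and SD of 4 arrays. The 3 Sall4 panels slope up to the control, the Sall1, Tfap2a and Tfap2c panels slope down to it, and the Sall2 levels overlap.

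Sall2, the most divergent family member, had mutant levels of 12.93, 12.73, 12.89 and 13.00, against control levels of 12.97, 12.97, 12.83 and 13.18. The groups overlapped and the sign of the ratio was not the same on all arrays. The log2 ratios were -0.04, -0.24, 0.06 and -0.18, with a fitted log2 ratio of -0.10 ± 0.05 (SE), a 95% interval from -0.22 to 0.02 and an adjusted p of 0.233. The Sall2 probe lies at chr14:52930994-52931053 on the minus strand.

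The Sall3 probe was well above background on 0 of 4 mutant and 0 of 4 control channels. Its mutant levels were 6.83, 6.59, 6.83 and 6.68, against control levels of 6.56, 6.38, 6.41 and 6.61, and no fold is given.

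Tfap2a, an AP-2 factor of surface ectoderm and neural crest, was read by 2 probes. At base 3054 the mutant levels were 9.48, 9.17, 9.37 and 9.25, against control levels of 9.13, 8.84, 8.77 and 9.05. The lowest mutant level was above the highest control level. Log2 ratios of 0.35, 0.33, 0.60 and 0.20 gave a fitted log2 ratio of 0.37 ± 0.06 (SE), 1.29-fold higher (adjusted p = 0.00574). The probe at base 93, annotated to 1 transcript, was not well above background on any of the 8 channels. Its mutant levels were 6.55, 6.53, 6.64 and 6.49, against control levels of 6.42, 6.41, 6.30 and 6.26, which did not overlap. The shares of such probes given above cover only probes that passed the filter, which excludes this one. The call for Tfap2a rests on the probe at base 3054.

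Tfap2c, an AP-2 factor known from trophoblast and germ cells, was also higher in the mutants. The mutant levels were 7.69, 7.84, 7.76 and 7.92, against control levels of 7.67, 7.36, 7.42 and 7.43. The groups did not overlap, though on replicate 1 the channels were nearly equal. Log2 ratios of 0.02, 0.48, 0.34 and 0.49 gave a fitted log2 ratio of 0.33 ± 0.07 (SE), 1.26-fold higher (adjusted p = 0.0120). Without replicate 3 the fitted value was 0.25 and the call was lost (adjusted p = 0.0683). The scanner software's ratios gave 0.57, over 1.5 times the value above, with an adjusted p of 0.0267, beside 0.39 for Tfap2a at base 3054. The difference between the Tfap2a and Tfap2c ratios was not tested. The probe lies at chr2:172383860-172383919 on the plus strand.

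Tfap2b, mutated in human Char syndrome, was well above background on 1 of 4 mutant channels and 0 of 4 control channels and was not tested. Its mutant levels were 6.77, 6.93, 6.93 and 7.32, against control levels of 6.66, 6.75, 6.61 and 6.77. The groups met at 6.77, the lowest mutant and the highest control level, and replicate 4 held the highest mutant level. No fold is given, since 3 of the 4 mutant channels were not well above background. The probe lies at chr1:19228555-19228614 on the plus strand.

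Male and female arrays gave the same direction for each of the 7 tested probes when averaged by the sex labels. The male and female mean log2 ratios of Sall1 were 1.13 and 1.01, and those of Sall4 at base 4512 were -0.93 and -0.77. For Tfap2c they were 0.42 and 0.25. The test of the male minus female difference called 0 of the 7 probes, with adjusted p-values of 0.474 to 0.83, against 0.0172% of 23189 probes. With 2 arrays of each sex and 1 residual degree of freedom, a p that misses the threshold does not show equal effects; the test found 3853 of all probes at an unadjusted p under 0.05.

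**Figure D3:**
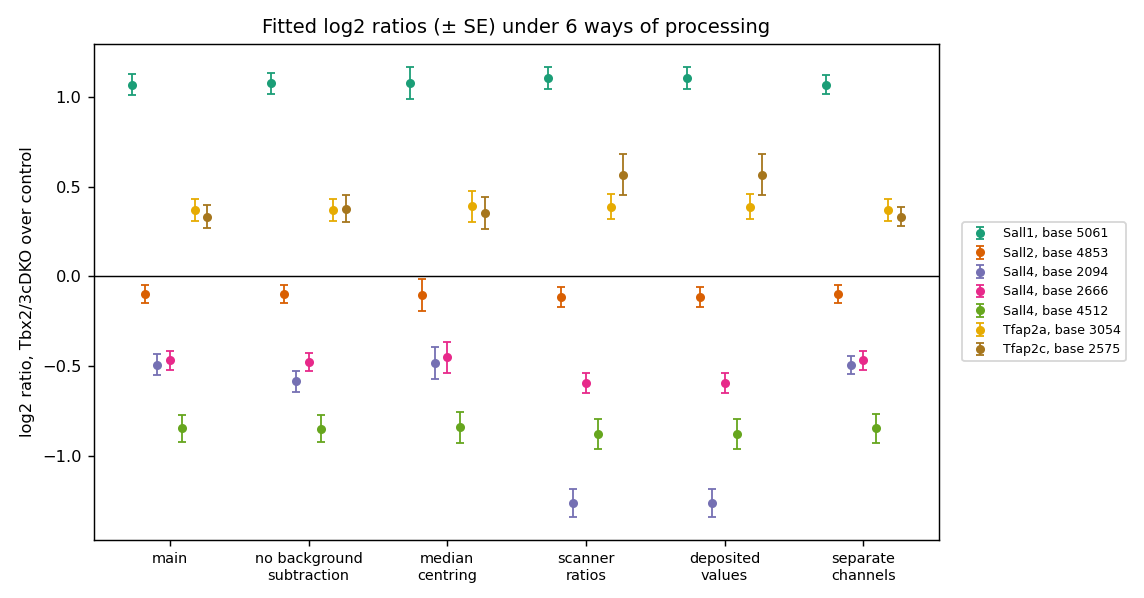
Fitted log2 ratios of mutant over control (y axis, error bars SE) for the 7 tested probes under 6 ways of processing the same arrays (x axis). For these probes the deposited values are the scanner software's ratios. The Sall4 probe at base 2094 moved from -0.49 to -1.26 with the scanner software's ratios and Tfap2c from 0.33 to 0.57, while Sall1 stayed close to 1.07.

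Related genes were read in lists. Of 7 AP-2 relatives and regulators, 5 were tested and 1 was higher and 0 lower, with a median log2 ratio of 0.01. Cited4, a coactivator that binds AP-2 proteins, was the gene that rose, by a log2 ratio of 0.74 ± 0.19 (SD, n = 4; adjusted p = 0.000234). Tfap2d and Tfap2e were above background on 0 arrays. Of 13 NuRD subunits, all 13 were tested and 1 was higher and 0 lower (median 0.03). That was Rbbp4, a histone-binding subunit, at 0.43 (adjusted p = 0.00138), but its other measured probe read -0.15.

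Of 14 placode genes, 12 were tested, with 2 higher and 6 lower and a median of -0.23. Gata2, a zinc finger factor, fell by 1.50 on the log2 scale (adjusted p = 2.42e-05), and its relative Gata3, needed for inner ear development, fell by 1.10 (adjusted p = 0.000143). Dlx5, a homeobox factor of the dorsal otocyst, fell by 1.19 (adjusted p = 7.60e-05), and its neighbour gene Dlx6 fell by 1.31 (adjusted p = 9.11e-05). Eya2, a transcriptional coactivator with phosphatase activity, named after its value was seen, rose by 0.91 (adjusted p = 0.000182).

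Genes whose ratios were most like those of Sall1 over the 4 arrays, among 13862 genes by the root mean square difference, were Rufy4 (difference 0.0713), Apold1 (0.0781) and Esrrb (0.0837), with 18 genes within 0.15. For Sall4 at base 4512 they were Apcdd1, an inhibitor of Wnt signalling (0.0420), Olfr224 (0.0969) and Msx3 (0.114), with 15 genes within 0.15.

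**Figure D4:**
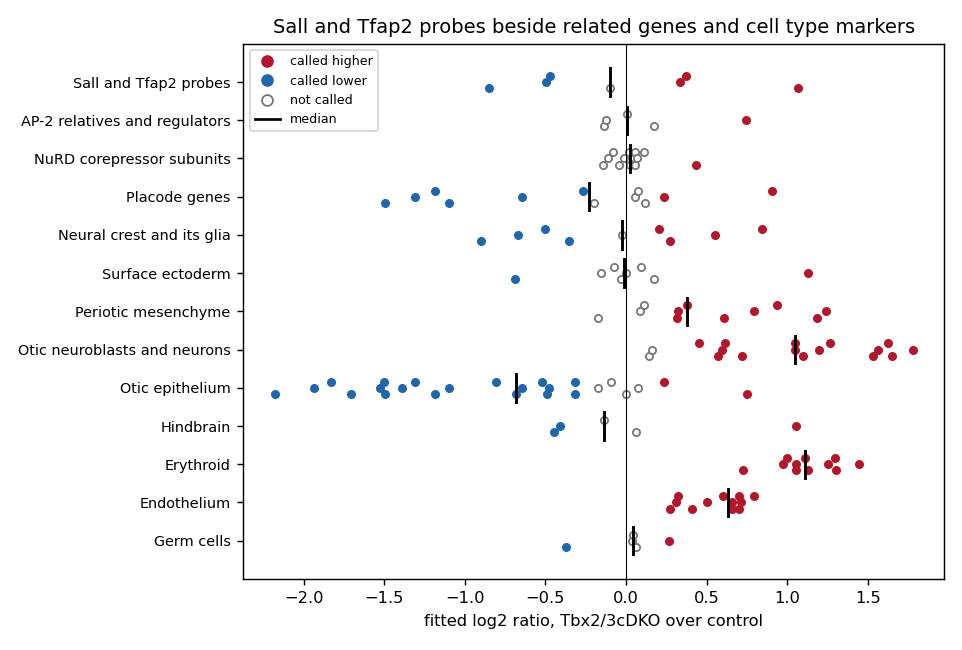
Fitted log2 ratios of mutant over control (x axis) for the 7 tested member probes and for each measured gene of 12 lists (rows), with filled points for called genes and a bar for the median. The Sall and Tfap2 probes lie on both sides of 0, erythroid and endothelial markers above it and most otic epithelium markers below it.

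Otocyst preparations can hold other cells, and less RNA per cell cannot be told apart from fewer cells of a type. The summed level of 11 erythroid markers was 827132 to 906508 in mutants, against 278956 to 435203 in controls, and all 11 were called higher (median 1.11). All 12 endothelium markers tested were higher, with a median of 0.63. Of 11 periotic mesenchyme markers tested 8 were higher and 0 lower (median 0.38), and of 17 neuroblast and neuron markers 15 were higher (median 1.05). Of 25 otic epithelium markers 2 were higher, 19 lower and 4 not called, with a median of -0.68. Their summed level was 159643 to 178103 in mutants, against 291017 to 319338 in controls. The brightest of them, Oc90, weighs most in this sum (mean log2 level 14.99 in mutants, 16.82 in controls). The sum without Oc90 was not computed. The part of these shifts in the Sall and Tfap2 results was not tested.

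Neural crest and surface ectoderm are the cells for which Tfap2 genes are best known. Of 9 neural crest and glia markers tested 4 were higher and 4 lower (median -0.02), and their summed level was 32931 to 34668 in mutants, against 34019 to 39558 in controls. Foxd3 was above background on 2 mutant and 0 control channels. Of 8 surface ectoderm markers 1 was higher, Krt15, an epidermal keratin (log2 ratio 1.13), and 1 lower, Wnt6, a secreted signal (-0.69). Trp63, a master regulator of epidermis, read -0.07 at its brightest probe and was not called, but its other measured probe read 0.85. The summed level of the surface ectoderm markers was 6713 to 7659 in mutants, against 8462 to 9406 in controls. On every array the summed levels of the crest and ectoderm lists were lower in the mutant channel. Such sums weigh the brightest genes most, and in both lists the brightest gene was called lower. These were Sox10 (mean log2 level 13.58 in mutants, 13.93 in controls) and Wnt6 (11.46 and 12.15). Which cells the Sox10 and Wnt6 RNA came from was not tested, so the sums are no measure of crest or ectoderm cells alone. Sums without these genes were not computed. Of 5 hindbrain markers tested 1 was higher and 2 lower, with a median of -0.14. Of 5 germ cell markers tested 1 was lower, Prdm1, and 1 was called higher, Ddx4, which was above background on 3 mutant and 0 control channels and so passed the filter only through the mutants, and 4 of the list were above background on no array.

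Promoter windows of 250 bases upstream of the annotated starts were available for Sall1, Sall2, Tfap2a and Tfap2b, 8 windows in all, from the RefSeq annotation of GRCm38.p6. The T-box half-site GGTGTGA and the AP-2 site GCCNNNGGC, searched on both strands, were found in 0 of them, while 3.33% and 13.7% of 32851 such windows held each. No match says only that these letters are not in the windows.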

How the data were processed

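Total RNA of dissected otocysts was amplified and labelled with 2 dyes, per the labels' protocols, and read with Agilent Feature Extraction 10.7.3.1, per the submitters' processing notes. Spot intensities and local background intensities were deposited per array, and the same files hold log10 ratios computed by the scanner software after its own background subtraction and dye normalization, per the file headers. The deposited series table holds values of unstated scale, unit score, and these were read as signed fold ratios. After conversion to log2 with the sign kept, they were compared with the scanner's log2 ratios, turned to mutant over control. They lay within 0.001 of these for 90.8 to 93.3% of probes.

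Intensities were corrected with limma 3.58.1 (normexp, offset 50) and normalized by loess within arrays in R 4.3.3, spots flagged non-uniform (21 to 32 an array) were left out, and replicate spots were averaged. Kept were probes that 3 or more arrays showed well above background in 1 genotype, 23202 in all. A linear model with a mutant term, signed by which dye the mutant carried, and an intercept for the dye was fitted to all kept probes, with eBayes and Benjamini-Hochberg adjustment over 23196 probes and a threshold of 0.05. Channel levels come from Aquantile after loess. The number of arrays, 4, limits the precision. Alternatives were the scanner ratios, no background subtraction, median centring, the series table, other filters, no dye term, a sex term, an intensity trend, 1 probe a gene, separate channels, and leaving out each array. Figures were made with matplotlib.

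Members and lists were chosen with earlier results of these data known. Named list genes were those past the threshold with the brightest kept probe, up to 4 a list by adjusted p. Marker genes given by name were chosen after their values were seen. The values of 1 list gene are not reported here.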

Additional observations from a re-analysis of the deposited data

Results flagged for a closer look

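A single array stood apart from the other 3 in 3 of the 30 groups of 4 values looked at (log2 ratio, mutant level and control level of each of the 10 probes), and chance alone flags about 1 in 20 such groups. The Sall1 log2 ratio of replicate 3 was 1.25, while the other arrays lay at 1.01. The Sall1 mutant level of replicate 2 was 11.33, below the other mutant levels of 11.52 to 11.54. The Sall4 log2 ratio at base 2094 was -0.32 on replicate 1, closer to 0 than the -0.54 to -0.57 of the other arrays. Sall1 stayed called higher and this Sall4 probe called lower when any 1 array was left out, with fitted log2 ratios of 1.01 to 1.13 for Sall1 and -0.55 to -0.44 for Sall4 at base 2094.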

How the results depend on the processing

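Of the 7 tested probes, 5 were fitted under all 16 alternatives, Sall4 at base 2666 under 15 and Sall4 at base 2094 under 14. Each kept its direction in these. For the 7 tested probes the series table held the scanner software's ratios, so those alternatives are not independent of each other. Among the 7 tested probes the call changed only for Tfap2c, without replicate 3 (log2 ratio 0.25, limma adjusted p = 0.0683). Over the fits that leave out 1 array, Tfap2c ranged between 0.25 and 0.41, the number of all probes called higher between 1975 and 2821, the number called lower between 1342 and 2172, beside 2249 with all arrays, and the member probes called between 5 and 6. Without replicate 3 the number called lower was 1342. The scanner software's ratios called 0 probes for the male minus female difference, beside 4 in limma on the loess ratios. In the separate-channel fit with the array as a replicate block, Tfap2c had a log2 ratio of 0.33 and Sall1 1.07, and no call of a member probe changed. Cause was not tested in any of these. Array signal limits Sall3, Tfap2b and the Tfap2a probe at base 93, which were near or below background. In the limma fit without the filter, Sall3 (adjusted p = 0.0228) and Tfap2b (adjusted p = 0.0289) were past the threshold, both higher in the mutants. The Tfap2a probe at base 93 was not (adjusted p = 0.0583). No call is made for these dim probes.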
